A study of Mus musculus with 8 samples.

Results

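Mouse embryonic stem cells (ESCs) in which the gene Pml is knocked down were followed from the undifferentiated culture to embryoid bodies, the free-floating aggregates that ESCs form when they are left to differentiate. The members are the 4 arrays labelled PML KD ESC D0 and PML KD EBs D4, 2 at each day, of the 8 arrays in the series, and the 19938 genes that could be named with 1 symbol on the platform, Affymetrix MoGene 1.0 ST. All cells were CGR8, a feeder-independent ESC line, with C57BL/6 given as background strain and 129P2/OlaHsd as donor strain. The PML KD line carried a hairpin against Pml in the lentiviral vector pLKO.1 and was selected with puromycin, so it is a stable knockdown line and not a knockout. The day 0 arrays hold RNA of adherent ESCs grown with serum and LIF (leukaemia inhibitory factor, the cytokine that holds mouse ESCs undifferentiated). The day 4 arrays hold RNA of bodies that had spent 2 days in hanging drops without LIF and the rest in suspension. The other 4 arrays, WT ESC D0 and WT EBs D4, 2 each, went through the same steps. The labels call the controls WT, the protocol also names an empty vector, and the sources used here do not settle which of these the WT cells were. No label says whether paired arrays are separate cultures, and the p-values reflect array-to-array spread alone, which may be technical.

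PML is the protein that builds PML nuclear bodies, spheres in the nucleus where proteins are modified by SUMO and brought together. Naive ESCs resemble the inner cell mass of the blastocyst. When LIF is withdrawn they shut down the naive factors, pass through a formative state like that of the early post-implantation epiblast, and enter the germ layers. In embryoid bodies the outermost cells become primitive and then visceral endoderm, an absorptive and secretory epithelium that lies on a basement membrane.

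Before any change over time is read, the day 0 PML KD arrays have to be described, because they stand apart from the other 6. Across genes the 2 arrays of each group correlated at 0.995 to 0.997. The group means of the lines correlated at 0.971 with each other at day 0 and at 0.985 at day 4, while the days correlated at 0.953 within PML KD and at 0.956 within WT. Eif2s3y, a Y-linked gene for a translation initiation factor, read 5.20 and 4.95 at day 0 and 9.99 and 9.86 at day 4. It lay between 10.08 and 10.20 on all 4 WT arrays, so only the day 0 PML KD arrays were low. The Y-linked demethylase gene Uty read 5.40 and 5.77 at day 0 and 9.14 and 9.03 at day 4, and Zfy1 5.01 and 5.18 at day 0 and 7.32 and 7.42 at day 4, with the same 2 arrays low. Among genes above the median signal, those of chromosome 8 changed over time in PML KD by a median of -0.26 log2 relative to all other genes (550 genes), and those of chromosome 14 by -0.28 (329 genes). The same medians in WT were 0.04 and -0.13. When the day 4 PML KD arrays were set against WT ESC D0 they were 0.04 and -0.10, so the chromosome 8 difference sits on the day 0 PML KD arrays. Genes of chromosome X shifted upwards in PML KD, by 0.18 relative to all other genes (303 genes, 50.8% rose and 23.8% fell). Their median was 0.05 in WT and 0.11 from WT ESC D0. What part of the rises of X-linked genes below follows from this was not tested. Genes of chromosomes 8, 14 and X are not all marked as such below.

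**Figure D1:**
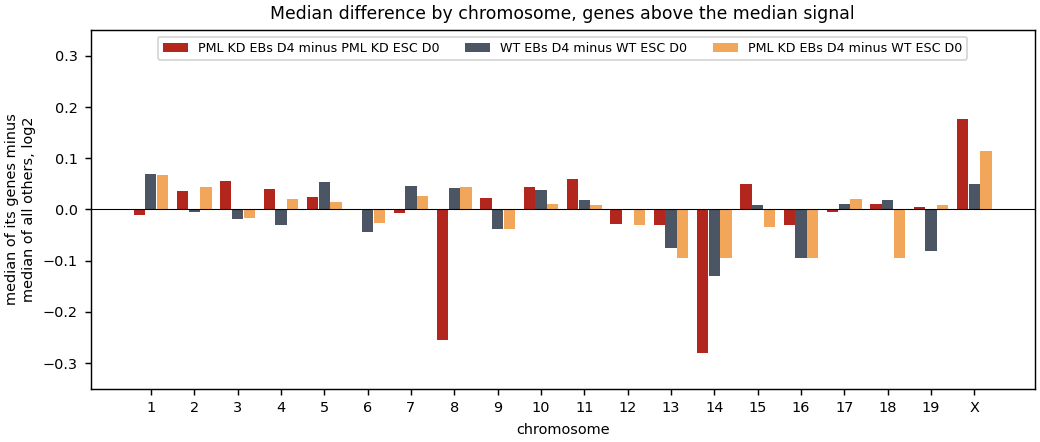
Median log2 difference of the genes of each chromosome minus the median of all other genes, for 3 comparisons (bars), over genes above the median signal; chromosome Y, with 4 such genes, is left out. Chromosomes 8 and 14 fall to -0.26 and -0.28 from PML KD ESC D0 to PML KD EBs D4, and chromosome 8 does not do so when WT ESC D0 is the starting point (0.04). Chromosome X lies at 0.18, and at 0.11 from WT ESC D0.

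Dim and bright genes also moved apart. When all genes were ordered by mean signal and cut into 10 equal bins, the 4 dimmest had medians of -0.11 to -0.16 log2 in the PML KD change and the brightest bin 0.13. In the WT change the same bins ran the other way, at 0.09 to 0.20 and -0.29. After quantile normalization the PML KD medians became -0.01 to -0.06 and 0.04. Olfactory receptor genes, which ESCs are not known to use, show the size of this: of 1027, 341 passed as lower (33.2%) and 6 as higher, and after quantile normalization 181 and 13. Small falls of dim genes below are of that size. Where both arrays of a group lay under the 25th percentile of all genes, the gene is near the lower end of what the array resolves, and the size of a change from or to that group is uncertain. In PML KD ESC D0 this holds for Afp, Anxa1, Bmp2, Ctsh, Cyp26a1, Eif2s3y, Fndc3c1, Frzb, Hbb-bh1, Nrk, Plac1, Spink10, Tdpoz3, Uty, Zeb2, Zfy1 and the Mir302 genes, and in PML KD EBs D4 for Hbb-bh1, Hhip, Mir302b and Spink10. Most sets of genes below are given with their counts from WT ESC D0 to PML KD EBs D4 as well, a comparison added after these values were seen. Of 155 genes of the rule for named genes that passed over time in PML KD, 81 moved by over 1.5-fold with that start. For 135 genes the change differed from WT by the test, and 26 of them changed sides of WT with it. A change larger or smaller than in WT is therefore one from each line's own day 0. The labels were checked against defining markers: all 5 ESC markers fell in PML KD, all 4 endoderm and both visceral endoderm markers rose, 2 of 3 mesoderm markers rose, and of 3 neural markers 1 rose and 1 fell. What belongs to the day 0 culture and what to differentiation cannot be told apart in the change from PML KD ESC D0, and in the change from WT ESC D0 the hairpin and the time are mixed.

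Pml itself read 11.10 and 11.07 at day 0 and 10.54 and 10.69 at day 4. On the WT arrays it read 11.70 and 11.68 at day 0 and 10.88 and 10.84 at day 4. The knockdown arrays lay below the WT arrays of the same day at both days. At day 0 the difference from WT was -0.60 log2 (limma adjusted p = 0.000317). At day 4 the lines lay closer together, and their difference at that day was not tested. Within PML KD the day 4 arrays lay below the day 0 arrays. The fall over time was -0.47 ± 0.08 log2 (SE, limma, adjusted p = 0.00107, n = 2 arrays a day), against -0.83 in WT; the day 4 PML KD arrays lay -1.07 from WT ESC D0.

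Over all genes, 4847 rose and 5033 fell from PML KD ESC D0 to PML KD EBs D4 (limma on all 8 arrays, adjusted p under 0.05), which is 24.3% and 25.2% of the 19938 tested. At least 2-fold rises numbered 1008 and falls of that size 579. In WT 4849 rose and 5097 fell (24.3% and 25.6%), with 632 and 841 at least 2-fold; shifting each array to the same median changed the WT counts to 3190 and 6141. With WT ESC D0 as the starting point for the PML KD bodies, 3963 rose (19.9%) and 4468 fell (22.4%). A limma test of the difference between the PML KD and the WT change passed for 5034 genes with the PML KD change above WT (25.2%) and for 5055 with it below (25.4%). Of the genes that rose in PML KD, 1841 also rose in WT, 38.0% of either list. Of those that fell, 1851 fell in both, 36.8% of the PML KD list and 36.3% of the WT list. Opposite calls were common: 1516 genes rose in PML KD and fell in WT, and 875 fell in PML KD and rose in WT. Dim and bright genes shifted in opposite directions in the 2 lines. What part of these calls and of the differences of change follows from that was not tested. Of the extremes, 14 of the 15 largest rises and 14 of the 15 largest falls in PML KD passed in the same direction in WT.

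**Figure D2:**
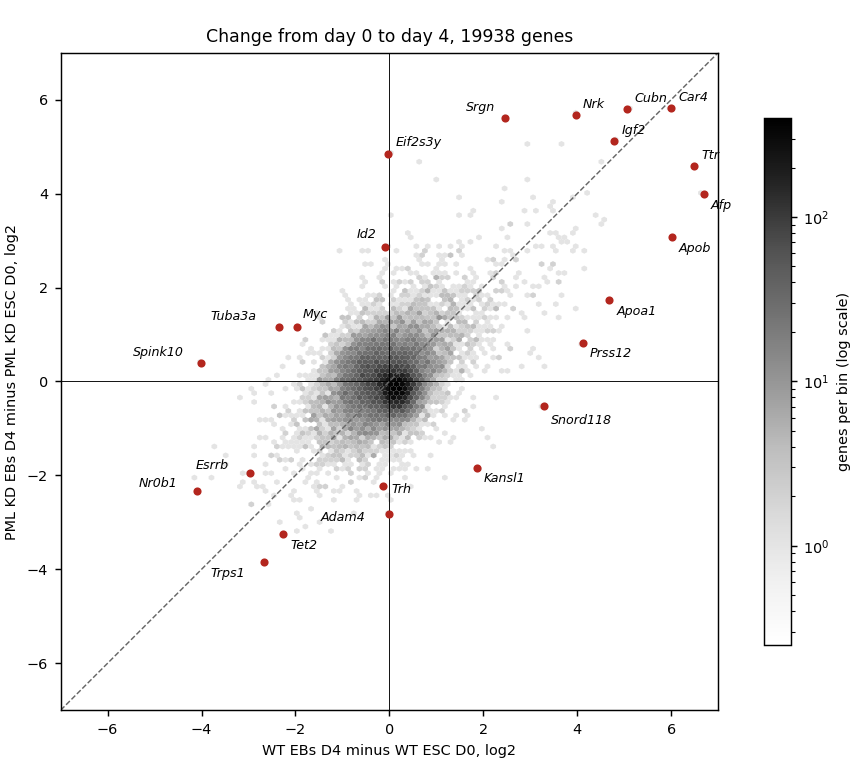
Log2 change from day 0 to day 4 of 19938 genes in WT (x axis) and in PML KD (y axis); grey hexagons count genes on a log scale, red points are named genes and the dashed line marks equal change. Car4, Cubn and Igf2 lie near the line at the top right, Afp, Apob and Apoa1 below it, and Eif2s3y (4.85) and Id2 (2.87) near the vertical axis, since WT did not pass for either.

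Naive factors fell almost throughout. Of 17 naive pluripotency factors measured, 16 fell and 1 rose, with a median of -1.66 log2 against -0.06 over all genes; the WT median was -2.30, and from WT ESC D0 16 fell. Nr0b1 (DAX1), a nuclear receptor of the naive network, read 11.50 and 11.63 at day 0 and 9.28 and 9.18 at day 4. Both day 4 arrays lay far below both day 0 arrays, a fall of 2.33 ± 0.09 (limma adjusted p = 3.85e-07), and WT fell by 4.11 from a higher start of 12.78 and 12.81. Nr5a2, a nuclear receptor that can replace exogenous Pou5f1 in reprogramming, read 11.09 and 11.12 at day 0 and 8.82 and 8.81 at day 4, a fall of 2.29 (adjusted p = 1.80e-07). Esrrb, an orphan nuclear receptor of the same network, read 11.85 and 11.87 at day 0 and 9.89 and 9.93 at day 4 and fell by 1.95. Zfp42 (REX1), the classical marker of undifferentiated cells, fell by 1.90, Klf4 by 1.86 and Tfcp2l1 by 1.59. For these 6 genes the day 0 and day 4 arrays of PML KD did not overlap, which held for 74.5% of all genes. Each fell less than in WT by the limma test of the difference (adjusted p from 2.57e-05 for Nr0b1 to 0.0327 for Klf4). Klf4 began lower than in WT, and from WT ESC D0 it fell by 2.59, more than the 2.24 of WT. Tfcp2l1 also began lower (-0.81 from WT at day 0), and from WT ESC D0 it fell by 2.39, near the 2.49 of WT. Zfp42 lies on chromosome 8, whose genes were high on the day 0 PML KD arrays; its day 0 values, 13.46 and 13.53, were close to the 13.43 and 13.42 of WT.

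Core factors fell as well. Of 17 core pluripotency genes 12 fell and 3 rose (median -0.71; WT -1.14), and 15 fell and 0 rose from WT ESC D0. Nanog, a homeodomain factor of the core circuit, read 12.32 and 12.40 at day 0 and 11.61 and 11.69 at day 4. It was lower on both day 4 arrays by 0.71 ± 0.07 (limma adjusted p = 8.04e-05), while in WT it fell by 2.33, to 10.50 and 10.51. Nanog thus ended higher in PML KD EBs D4 than in WT EBs D4 on all arrays, having started lower by 0.48 log2. Sox2 read 12.12 and 12.18 at day 0 and 11.70 and 11.60 at day 4, a fall of 0.50 against 1.27 in WT, and the difference of change passed for both genes (adjusted p = 1.94e-05 and 0.000805). Sox2 began lower than in WT (12.88 and 12.76) and ended near WT EBs D4 (11.60 and 11.51). From WT ESC D0 it fell by 1.17. Pou5f1 (OCT4) read 12.65 and 12.80 at day 0 and 11.79 and 11.72 at day 4 and fell by 0.97 against 1.36 in WT, but by 1.60 from WT ESC D0. The secreted TGF-beta family member Gdf3 fell by 1.91 and Fgf4, the growth factor through which ESCs drive their own exit, by 1.32, and the difference from WT passed for neither (adjusted p = 0.403 and 0.18). In bulk RNA, here and below, fewer cells of a type and less RNA per cell cannot be told apart.

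**Figure D3:**
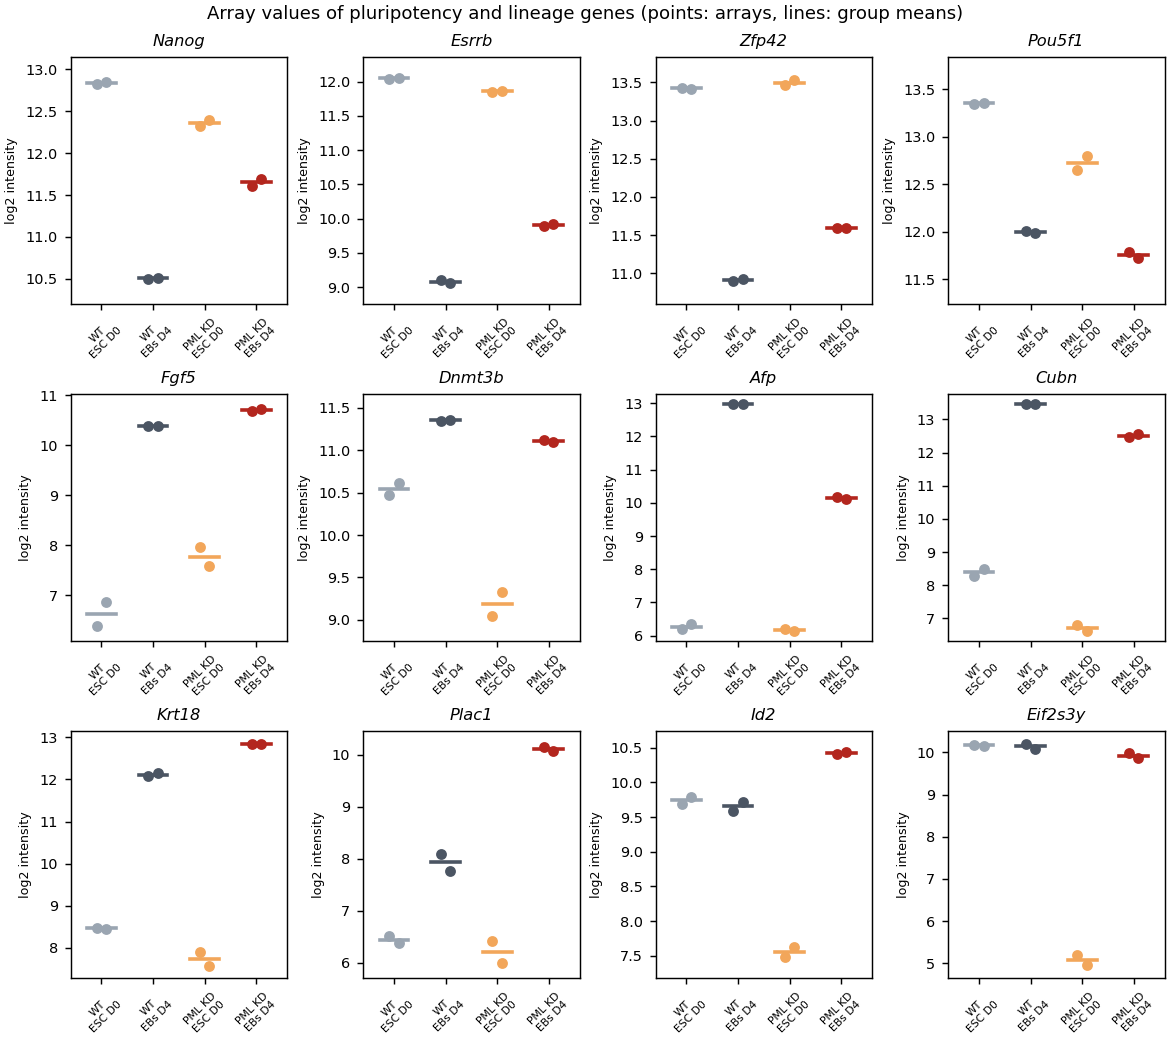
Log2 intensity of 12 genes on each of the 8 arrays (points) with the mean of each group (lines); the y axes differ and do not start at 0. Naive and core factors fall in both lines, Nanog ends higher in PML KD EBs D4 (11.61 and 11.69) than in WT EBs D4 (10.50 and 10.51), Afp ends lower, and Dnmt3b, Id2 and Eif2s3y start low on the day 0 PML KD arrays.

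Formative genes came up. Of 26 formative and primed epiblast genes 15 rose and 7 fell (median 0.73; WT 0.52; from WT ESC D0 19 rose and 6 fell). Fgf5, the marker of post-implantation epiblast, read 7.96 and 7.59 at day 0 and 10.67 and 10.72 at day 4. The rise of 2.92 ± 0.16 (limma adjusted p = 2.74e-06) left it above the WT EBs D4 values of 10.38 and 10.39, and it had also started above WT (6.38 and 6.87). Otx2, a homeodomain factor of the epiblast (chromosome 14), read 9.35 and 9.40 at day 0 and 10.60 and 10.69 at day 4. It rose by 1.27 against 0.49 in WT. Dnmt3b, a de novo DNA methyltransferase, read 9.05 and 9.32 at day 0 and 11.13 and 11.10 at day 4 and rose by 1.93 against 0.81. Both genes began lower in PML KD than in WT at day 0 (Dnmt3b read 10.48 and 10.61 there) and ended slightly below it at day 4, and from WT ESC D0 their rises were 0.36 and 0.57. Cldn6, a tight junction protein of pluripotent epithelium, reached 13.01 and 12.96 from 9.83 and 9.84, a rise of 3.15. The ephrin receptor gene Epha2 fell by 1.83, more than the 0.62 of WT (difference adjusted p = 4.46e-05).

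The precursors of the Mir302 and Mir367 cluster rose with them. These microRNAs are abundant in primed pluripotent cells and repress inhibitors of the cell cycle. RefSeq places the 5 hairpins within 1 kilobase on chromosome 3, at chr3:127545228-127545807 (GRCm38.p6, plus strand), inside the span of the protein-coding gene Larp7, which runs on the other strand. The mature arms in the RefSeq table are printed because the seed, bases 2 to 8 and shown in capitals, is what a microRNA pairs with.
miR-302b-3p: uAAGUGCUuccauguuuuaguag
miR-302c-3p: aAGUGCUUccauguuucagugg
miR-302d-3p: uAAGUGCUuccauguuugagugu
miR-367-3p: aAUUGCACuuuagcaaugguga
miR-17-5p: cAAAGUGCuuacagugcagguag
The miR-302b and miR-302d arms share the seed AAGUGCU. The miR-302c arm starts 1 base later in this table, and its seed, AGUGCUU, is the same stretch moved by 1 base. The miR-367-3p seed is unrelated, and miR-17-5p of the miR-17 cluster carries AAAGUGC, which shares AAGUGC with that of miR-302b-3p.

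Mir302a read 4.60 and 4.69 at day 0 and 7.47 and 7.38 at day 4. Both day 4 arrays were high and both day 0 arrays low, a rise of 2.78 ± 0.10 (limma adjusted p = 3.85e-07) against 0.75 in WT. Mir302c read 4.21 and 4.57 at day 0 and 7.47 and 7.07 at day 4 and rose by 2.88, and Mir302d read 6.03 and 5.36 at day 0 and 8.22 and 8.56 at day 4 and rose by 2.69. Mir302b rose by 1.65 and Mir367 by 0.87. For the 4 Mir302 genes the rise was larger than in WT (limma adjusted p of the difference from 2.98e-05 for Mir302a to 0.0016 for Mir302d), and for Mir367 the difference did not pass (adjusted p = 0.0712). From WT ESC D0 the 4 rises were 2.37 for Mir302a, 1.70 for Mir302c, 1.88 for Mir302d and 1.08 for Mir302b, and all passed. Larp7, the host span on the opposite strand, rose by 0.85 (WT 0.27). All 5 precursors lay under the 25th percentile of all genes in PML KD ESC D0, and Mir302b and Mir367 (4.81 and 4.47) also in PML KD EBs D4, so the sizes of these rises are not ranked. Mir367 and Larp7 fall outside the rule for named genes and were chosen after their values were seen. The probes measure precursor RNA and say nothing of the processed arms.

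**Figure D4:**
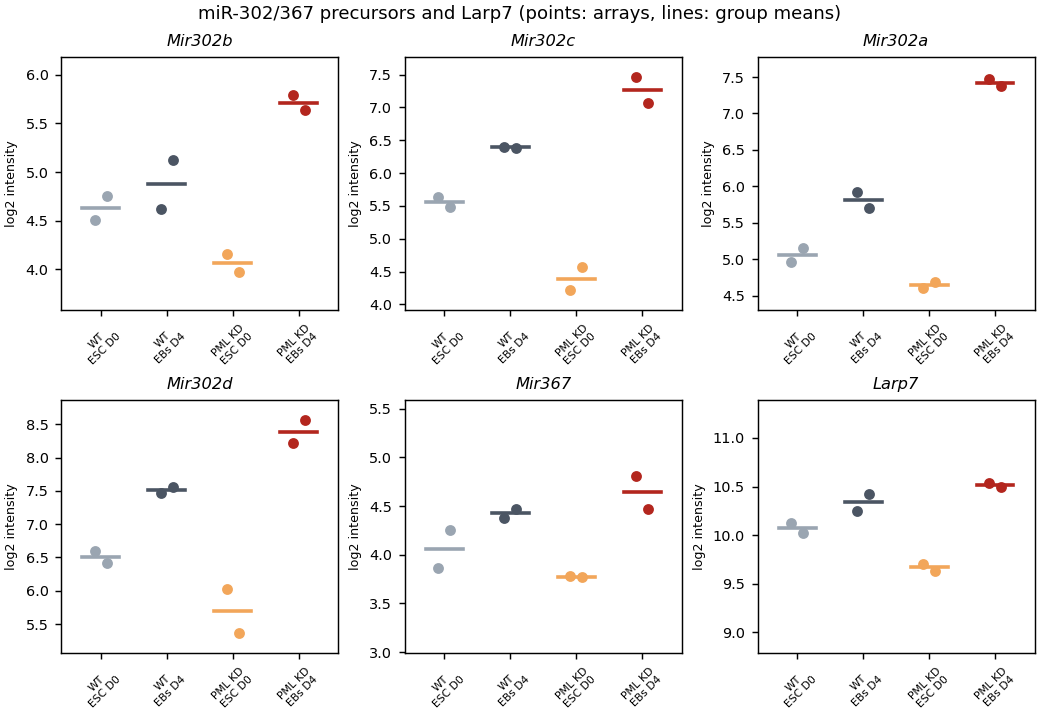
Log2 intensity of the 5 precursors of the cluster and of Larp7 on each array (points) with group means (lines); the y axes differ and do not start at 0. In every precursor panel the 2 PML KD EBs D4 arrays lie above the 2 PML KD ESC D0 arrays, which have the lowest mean of the 4 groups.

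The miR-17 cluster on chromosome 14 went the other way. Mir17 read 7.97 and 8.01 at day 0 and 6.96 and 6.91 at day 4 and fell by 1.05 (limma adjusted p = 3.87e-05), with no call in WT, and its host transcript Mir17hg read 8.66 and 8.71 at day 0 and 7.58 and 7.40 at day 4 and fell by 1.20 while rising by 0.73 in WT. For Mir17 the day 4 arrays lay within the range of the WT ESC D0 arrays (6.79 and 7.02), and only the day 0 PML KD arrays were high. Mir17hg was chosen after its values were seen. Of 296 microRNA precursors measured 23 rose and 111 fell in PML KD (7.8% and 37.5%), and 124 rose and 3 fell in WT. Over all genes 24.3% rose and 25.2% fell in PML KD, and 33.2% of olfactory receptor genes fell. 153 of the precursors lay under the 25th percentile on all 4 PML KD arrays. The 4 dimmest signal bins moved in the same directions (medians -0.11 to -0.16 in PML KD, 0.09 to 0.20 in WT). How far the precursor counts follow from that was not tested.

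Visceral endoderm genes rose almost throughout. Of 38 measured 35 rose and 0 fell, by a median of 1.62 log2, and the counts from WT ESC D0 were 35 and 0; in the authors' deposited workbook after quantile normalization, called the workbook below, 28 rose and 5 fell in PML KD. The WT median was larger, 2.56, and for 26 of the 38 genes the PML KD change lay below the WT change by the test of the difference, for 3 above. The endocytic receptor genes Cubn and Lrp2 rose more than in WT by that test, each from a day 0 below WT. Cubn, the cubilin receptor that takes up vitamin B12 and proteins, read 6.81 and 6.62 at day 0 and 12.47 and 12.55 at day 4, a rise of 5.80 ± 0.10 or 55.7-fold (limma adjusted p = 2.27e-08), and WT rose by 5.07. Dab2, its endocytic adaptor, read 6.57 and 7.21 at day 0 and 11.52 and 11.64 at day 4 and rose by 4.69 (WT 4.49, difference adjusted p = 0.524). Lrp2 (megalin), the partner receptor of cubilin, read 9.32 and 9.30 at day 0 and 12.31 and 12.38 at day 4 and rose by 3.03 against 2.47. All 3 genes were low on the day 0 PML KD arrays, by -1.68 log2 from WT for Cubn, -1.45 for Dab2 and -1.03 for Lrp2. From WT ESC D0 the rises were 4.12, 3.24 and 2.00, each below that of WT.

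Afp, Apob, Ttr, Rbp4, Apoa4 and Apoa1, which encode secreted proteins, rose less than in WT by the test of the difference. Afp, alpha-fetoprotein, read 6.19 and 6.14 at day 0 and 10.17 and 10.12 at day 4, with no overlap and a fitted rise of 3.99 (limma adjusted p = 3.12e-08) from under the 25th percentile, but it reached 12.97 on both WT EBs D4 arrays, a rise of 6.70. The difference of the 2 changes was -2.71 log2 (adjusted p = 6.95e-06). Apob, the apolipoprotein that carries lipid out of the cell, read 6.89 and 6.98 at day 0 and 9.97 and 10.05 at day 4, a rise of 3.07 against 6.01 in WT. Ttr, the transthyretin carrier of thyroid hormone, rose by 4.58 against 6.48, and Rbp4, the retinol carrier that binds it, by 2.82 against 4.12. Apoa4 read 7.93 and 7.77 at day 0 and 8.16 and 8.16 at day 4, a rise of 0.31 (adjusted p = 0.0317, not passed after quantile normalization at 0.23), while the WT EBs D4 arrays read 11.04 and 10.84. Apoa1 rose by 1.73 in the array table but changed by -0.36 in the authors' workbook after quantile normalization, so its direction depends on the source of the values.

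Of the transcription factors that specify this lineage, Gata6 read 7.73 and 7.65 at day 0 and 9.21 and 9.62 at day 4 and rose by 1.72, with no difference from WT that passed (adjusted p = 0.128). Gata4, on chromosome 14, rose by 1.07 against 2.09 in WT (limma difference adjusted p = 0.000187), and Sox17 by 0.65 against 1.72. In the workbook the Gata4 rise was 0.10 and did not pass. The Sox17 call was lost without the second day 0 array (0.55) or the first day 4 array (0.51) of PML KD. The promoter of Afp, the classical product of this tissue, is printed with GTTAAT, part of the recognition motif of its activator HNF1, in capitals; the motif was searched on both strands. The span is chr5:90490464-90490763 (GRCm38.p6, plus strand, from 250 bases before the gene's start to 50 after).
Afp promoter: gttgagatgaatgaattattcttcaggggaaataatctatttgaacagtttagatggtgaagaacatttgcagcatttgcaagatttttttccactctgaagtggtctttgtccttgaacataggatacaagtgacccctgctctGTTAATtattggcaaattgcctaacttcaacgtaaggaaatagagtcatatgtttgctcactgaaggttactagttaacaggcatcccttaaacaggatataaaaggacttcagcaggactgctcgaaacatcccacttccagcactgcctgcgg
GTTAAT was found in 7 of the 25 list genes with a promoter in the table and in 7.11% of all 15614 promoters of measured genes. The motifs here and below were kept after others had been searched in these lists, so the shares are descriptions.

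Basement membrane genes were more mixed. Lamb1, a laminin chain of the early basement membrane, read 9.45 and 9.58 at day 0 and 12.36 and 12.50 at day 4 and rose by 2.91 (limma adjusted p = 1.54e-07). Col4a1 and Col4a2, the collagen IV chains, rose by 2.22 and 2.45 against 3.35 and 3.45 in WT, both lower by the test of the difference, and both lie on chromosome 8. Of 20 basement membrane genes 9 rose and 5 fell, against 14 and 1 in WT and 12 and 2 from WT ESC D0; in the workbook 9 rose and 10 fell in PML KD. Lysosomal genes gave 13 rises and 6 falls of 23, against 19 and 2 in WT and 20 and 1 from WT ESC D0. Their members that rose most were the cathepsin genes Ctsh, which read 6.41 and 6.18 at day 0 and 9.79 and 9.83 at day 4, and Ctsc, which rose by 2.78 (WT 4.36 and 3.85).

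Genes of trophectoderm, the outer layer of the blastocyst that forms the placenta, were among those that rose. Of 23 measured 19 rose and 1 fell (median 1.28; WT 0.46), and 19 rose from WT ESC D0 with a median of 1.20. The PML KD change lay above the WT change for 16 of them by the test of the difference. Plac1, an X-linked placental gene, read 6.42 and 6.00 at day 0 and 10.15 and 10.06 at day 4, a rise of 3.90 ± 0.15 (limma adjusted p = 4.50e-07) against 1.48 in WT. WT read 6.51 and 6.37 at day 0 and 8.09 and 7.76 at day 4, so PML KD EBs D4 was the high group. Peg10, a retrotransposon-derived gene needed for the placenta, read 10.72 and 10.76 at day 0 and 14.24 and 14.37 at day 4 and rose by 3.57, but by 1.99 from WT ESC D0, where WT was higher than PML KD ( 12.29 and 12.34). Rhox9 and Rhox6, X-linked homeobox genes of placenta and germ line, rose by 2.09 and 1.51; Rhox9 had no call in WT. Cdx2, the factor that sets up the lineage, read 7.30 and 7.05 at day 0 and 7.26 and 7.35 at day 4 and did not pass (adjusted p = 0.368), though it passed in the workbook at 0.80. Plet1, a membrane protein of trophoblast progenitors, rose by 1.92, from a low day 0, and its 10.77 and 10.87 at day 4 lay close to WT ESC D0, 10.58 and 10.61.

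Simple epithelium genes moved alongside. Of 20 genes 16 rose and 1 fell (median 1.45; WT 1.00; from WT ESC D0 17 rose). Krt18, a keratin of simple epithelia, read 7.89 and 7.58 at day 0 and 12.84 and 12.85 at day 4 and rose by 5.11, 34.6-fold, against 3.66 in WT (difference adjusted p = 0.000107). Krt19 rose by 3.95 and Krt7 by 2.72, both more than in WT. Cldn7 and the splicing regulator Esrp1 rose by 2.90 and 2.47, against 3.24 and 3.27 in WT; only for Esrp1 did the difference pass, and from WT ESC D0 its rise was 3.43.

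Imprinted genes, which are read from the copy of 1 parent, rose as a set: 18 of 22 rose and 2 fell, with a median of 0.93 against 0.60 in WT and 0.72 from WT ESC D0. Igf2, the fetal growth factor, read 7.34 and 7.71 at day 0 and 12.52 and 12.77 at day 4, a rise of 5.11 against 4.79 in WT (difference adjusted p = 0.165). Nnat, a neuronatin proteolipid, read 7.38 and 7.52 at day 0 and 10.20 and 10.12 at day 4 and rose by 2.71 against 0.67, and Meg3, a non-coding RNA, by 2.19 against 1.05. Meg3 was low on the day 0 PML KD arrays, and from WT ESC D0 it rose by 0.77, less than in WT. Zfp57, a zinc finger protein that keeps methylation at imprinted regions and was listed with the methylation genes, read 13.60 and 13.58 at day 0 and 10.75 and 10.80 at day 4 and fell by 2.81 against 1.96 in WT.

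Germ layer genes gave a weaker and more uneven picture. Of 23 primitive streak genes 9 rose and 5 fell, against 17 and 2 in WT and 9 and 3 from WT ESC D0. Eomes read 7.66 and 7.60 at day 0 and 8.86 and 8.94 at day 4 and Mixl1 7.31 and 7.19 at day 0 and 7.69 and 7.66 at day 4, rises of 1.27 and 0.43, but from WT ESC D0 Eomes fell by 0.24. Cyp26a1, which breaks down retinoic acid, read 5.97 and 5.83 at day 0 and 9.36 and 9.14 at day 4, a rise of 3.35 against 4.46 in WT, and Frzb, a secreted Wnt antagonist, rose by 2.91. Mesp1, which marks the first heart mesoderm, read 7.10 and 6.92 at day 0 and 7.09 and 6.98 at day 4, with overlapping arrays and no call (adjusted p = 0.89), and passed as lower in the workbook, at -0.33. Foxa2 of the streak and endoderm rose by 0.49 against 1.15 in WT. The brachyury gene T has no probe set with its symbol and was not analysed here.

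Lateral mesoderm (9 rose and 4 fell of 24), cardiac muscle (7 and 5 of 20), blood and endothelial progenitors (9 and 5 of 23) and early neural genes (6 and 7 of 26) had medians between -0.03 and 0.18 log2. Pdgfra, a receptor of mesoderm and primitive endoderm, read 7.76 and 7.32 at day 0 and 10.53 and 10.68 at day 4 and rose by 3.06 (limma adjusted p = 9.09e-07). Hbb-bh1, an embryonic globin, read 5.27 and 5.14 at day 0 and 6.28 and 6.37 at day 4, a rise of 1.12 from a dim start with no call in WT, and Kdr, the VEGF receptor of blood and vessel progenitors, rose by 0.50, a call lost without the first day 4 array (0.40). Ncam1, a neural adhesion molecule, read 10.45 and 10.55 at day 0 and 7.97 and 8.07 at day 4 and fell by 2.48, and its WT ESC D0 values of 8.41 and 8.36 lay far below the PML KD ones. Pax6 fell by 0.62 (from WT ESC D0 it rose by 0.27), Sox1 had no call (adjusted p = 0.124), and Nes, a neural progenitor filament, rose by 0.91. Definitive endoderm gave 11 rises and 2 falls of 17 and a median of 0.49 against 0.91 in WT; Trh, the thyrotropin-releasing hormone gene in that list, read 13.35 and 13.34 at day 0 and 11.14 and 11.12 at day 4 and fell by 2.22, close to both WT groups (11.16 to 11.37). Of 31 HOX genes 1 rose and 6 fell, by 0.29 to 0.38 log2, and 2 fell after quantile normalization, while in the workbook 5 rose and 7 fell; the olfactory receptor genes had a median of -0.25.

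Signalling genes went in both directions, as all genes did (24.3% rose and 25.2% fell). Of 24 LIF and STAT3 pathway genes 8 rose and 9 fell (median -0.06, as over all genes), and 4 rose and 13 fell from WT ESC D0. The receptor gene Lifr read 11.72 and 11.72 at day 0 and 10.41 and 10.38 at day 4 and fell by 1.32 (WT 1.42). Socs3, the feedback inhibitor that STAT3 switches on, read 8.45 and 8.20 at day 0 and 8.12 and 8.32 at day 4, with overlapping groups and no call (adjusted p = 0.504). In WT it read 10.70 and 10.73 at day 0 and fell by 2.64 (difference adjusted p = 2.55e-05), and WT EBs D4 read 8.22 and 7.94, near all 4 PML KD arrays. Jak2 and Pim2, a kinase of the pathway and a STAT target, rose by 1.74 and 2.34.

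Several Nodal genes fell more than in WT from a high day 0. Lefty1, the feedback inhibitor of Nodal, read 10.59 and 10.68 at day 0 and 8.81 and 8.72 at day 4 and fell by 1.87 ± 0.08 (limma adjusted p = 5.84e-07), while the WT arrays lay between 9.05 and 9.21 at both days. Tdgf1 (Cripto), the Nodal co-receptor, fell by 1.73 and Nodal by 1.09, against 0.86 and 0.49. Both were high on the day 0 PML KD arrays, and from WT ESC D0 the falls were 0.88 and 0.50, close to those of WT. Of 23 TGF-beta and Nodal genes 8 rose and 9 fell (median 0.03), with 10 and 5 from WT ESC D0. Of 23 FGF and ERK feedback genes 9 rose and 10 fell (median 0.01). Spry4, a feedback inhibitor of ERK, read 10.72 and 10.78 at day 0 and 8.62 and 8.58 at day 4 and fell by 2.15 against 0.87 in WT. From WT ESC D0 Spry4 also fell more than in WT, 3.63-fold against 1.83-fold. The receptor gene Fgfr2 rose by 2.09 (WT 1.84).

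The Id genes were low in PML KD ESC D0. Id2, Id3 and Id1 are inhibitors of basic helix-loop-helix factors and direct targets of BMP signalling. Id2 read 7.48 and 7.63 at day 0 and 10.41 and 10.44 at day 4, a rise of 2.87 ± 0.09 (limma adjusted p = 1.80e-07) with no call in WT (adjusted p = 0.417). Id3 read 7.39 and 7.39 at day 0 and 9.49 and 9.49 at day 4 and Id1 8.76 and 8.92 at day 0 and 10.69 and 10.64 at day 4, rises of 2.10 and 1.83. All 3 genes were low on the day 0 PML KD arrays, where WT read 9.69 and 9.79 for Id2. From WT ESC D0 they rose by 0.68, 0.93 and 0.90 respectively, which passed for each. Bmp4, the ligand made by ESCs, fell by 1.34 against 2.90 in WT, and Bmp2, made by visceral endoderm, rose by 2.04. The list as a whole had 13 rises and 3 falls of 23, and 13 and 6 in the workbook. Wnt genes gave 13 rises and 3 falls of 30 (median 0.02), against 20 and 3 in WT (median 0.46). The counts were 15 and 3 from WT ESC D0, and 12 and 10 for PML KD in the workbook. Porcn, the acyltransferase that lipid-modifies Wnt ligands, read 10.44 and 10.60 at day 0 and 8.74 and 8.61 at day 4 and fell by 1.84 while it rose by 0.84 in WT, and from WT ESC D0 it did not pass (0.25); Wls, the Wnt carrier to the cell surface, rose by 1.88. Retinoic acid genes gave 6 rises and 2 falls of 18 (6 and 6 in the workbook, 6 and 5 from WT ESC D0), with Crabp2, a retinoic acid binding protein, up by 1.21 and the receptor gene Rarg down.

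Immediate early genes, which answer growth signals and stress within minutes, gave 17 rises and 3 falls of 27 (median 0.61; WT 0.32), but 11 and 11 from WT ESC D0 and 15 and 6 for PML KD in the workbook. Ccn1 (CYR61), a matrix protein and YAP target, read 9.43 and 9.36 at day 0 and 12.22 and 12.26 at day 4 and rose by 2.84 (1.72 from WT ESC D0), and Gadd45b, a stress sensor, rose by 2.53 (WT 2.22). Myc read 7.92 and 8.21 at day 0 and 9.19 and 9.25 at day 4, a rise of 1.15 ± 0.11 (limma adjusted p = 5.20e-05) against a fall of 1.96 in WT. WT ESC D0 read 10.14 and 10.05, so the day 4 PML KD arrays lay between the low day 0 PML KD arrays and the high WT ones, and from WT ESC D0 Myc fell by 0.88.

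Glycolytic genes rose together. Of 20 measured 17 rose and 1 fell (median 1.05; WT 0.57), and from WT ESC D0 12 rose and 3 fell. Pgk1, phosphoglycerate kinase, read 10.52 and 10.47 at day 0 and 12.64 and 12.64 at day 4 and rose by 2.14 (limma adjusted p = 2.07e-07). WT ESC D0 read 12.28 and 12.30, so the day 0 PML KD arrays were low, and from WT ESC D0 the rise was 0.35. Tpi1, triosephosphate isomerase, rose by 2.23 (1.32 from WT ESC D0), and Slc16a3, the lactate exporter, read 9.39 and 9.30 at day 0 and 11.38 and 11.32 at day 4 and rose by 2.00. Pfkp, a phosphofructokinase, was the gene that fell, by 1.67.

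Hypoxia targets gave 15 rises and 3 falls of 22 (median 0.97; WT 1.05; 14 and 3 from WT ESC D0). Bnip3, a mitophagy receptor, read 8.18 and 8.37 at day 0 and 10.88 and 10.87 at day 4 and rose by 2.60, and by 1.31 from WT ESC D0. P4ha1, a collagen prolyl hydroxylase, read 8.73 and 9.09 at day 0 and 11.17 and 11.20 at day 4 and rose by 2.27 against 3.65 in WT. Ddit4 (REDD1), an inhibitor of mTORC1, rose by 2.59 and Car12, a carbonic anhydrase, by 1.79. The promoters of the first 2 are printed to show the core of the hypoxia response element, ACGTG on either strand, in capitals. They lie at chr7:138909457-138909756 (minus strand) and chr10:59323046-59323345 (plus strand) of GRCm38.p6.
Bnip3 promoter: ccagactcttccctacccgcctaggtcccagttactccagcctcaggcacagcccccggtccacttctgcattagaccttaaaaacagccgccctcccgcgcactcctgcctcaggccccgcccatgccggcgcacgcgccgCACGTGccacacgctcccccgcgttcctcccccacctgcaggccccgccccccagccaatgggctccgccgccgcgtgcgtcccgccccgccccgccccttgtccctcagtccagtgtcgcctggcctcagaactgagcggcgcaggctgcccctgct
P4ha1 promoter: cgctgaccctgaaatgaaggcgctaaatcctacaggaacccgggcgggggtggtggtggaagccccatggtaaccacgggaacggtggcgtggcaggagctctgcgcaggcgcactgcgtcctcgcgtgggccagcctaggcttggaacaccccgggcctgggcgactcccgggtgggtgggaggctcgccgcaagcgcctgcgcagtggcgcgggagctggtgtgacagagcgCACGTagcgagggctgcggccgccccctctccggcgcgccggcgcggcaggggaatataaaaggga
In Bnip3 the motif lies on both strands of the same site, 107 and 108 bases before the gene's start, and in P4ha1 on the minus strand near the start. ACGTG was found in 13 of 19 hypoxia genes with a promoter in the table and in 24.4% of all 15614.

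ATF4 and unfolded protein response genes leaned downwards. Of 26 measured 6 rose and 14 fell (median -0.37; WT -0.54), and 16 fell from WT ESC D0. The members that fell include amino acid transporters, while no chaperone gene of the list passed as lower. Slc7a3, a cationic amino acid transporter, read 13.05 and 13.05 at day 0 and 11.32 and 11.29 at day 4 and fell by 1.75, and Slc7a5, the large neutral amino acid transporter, fell by 1.44 (chromosome 8). Chac1, a glutathione-degrading enzyme, read 10.08 and 10.00 at day 0 and 8.40 and 8.38 at day 4 and fell by 1.65 (limma adjusted p = 7.55e-07). Its promoter, chr2:119350992-119351291 (plus strand, GRCm38.p6), holds the amino acid response element core TGATGNAA on the minus strand, in capitals.
Chac1 promoter: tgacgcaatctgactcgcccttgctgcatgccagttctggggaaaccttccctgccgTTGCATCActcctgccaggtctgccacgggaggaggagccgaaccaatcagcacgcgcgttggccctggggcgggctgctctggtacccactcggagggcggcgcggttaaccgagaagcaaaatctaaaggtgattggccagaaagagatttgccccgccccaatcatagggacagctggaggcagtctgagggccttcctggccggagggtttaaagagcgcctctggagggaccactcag
That core was found in 7 of 24 list genes and in 3.62% of all promoters. A match shows letters in a window and no binding.

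Ribosomal protein genes rose in PML KD from a low day 0. Of 23 cytosolic ribosomal protein genes 16 rose and 0 fell in PML KD, against 1 and 6 in WT and 1 and 4 from WT ESC D0, and 9 and 1 for PML KD in the workbook. Rpl8 read 12.61 and 12.66 at day 0 and 13.56 and 13.48 at day 4, and WT ESC D0 13.65 and 13.58, so here again the day 0 PML KD arrays were the low ones. Oxidative phosphorylation genes gave 8 rises and 5 falls of 24, against 1 and 21 in WT, 1 and 14 from WT ESC D0, and 4 and 6 in PML KD after quantile normalization. Cycs, cytochrome c, read 10.82 and 10.87 at day 0 and 12.10 and 11.91 at day 4 and rose by 1.16, but from WT ESC D0 it did not pass (0.16). Replication and mitosis genes gave 12 and 6 of 31, against 2 and 24 in WT, 6 and 12 from WT ESC D0 and 10 and 9 for PML KD in the workbook. The mitotic kinase genes Aurka and Cdk1 rose by 1.00 and 0.92, with 0.26 and 0.36 from WT ESC D0, and neither passed in WT. Of 25 G1 regulators 11 rose and 8 fell (6 and 10 in the workbook, 8 and 10 from WT ESC D0), among them Cdkn1c (p57), an inhibitor of cyclin-dependent kinases, up by 1.97, and Rbl2, a pocket protein of chromosome 8, down by 1.21. The brightest of 10 signal bins had a median of 0.13 in PML KD and -0.29 in WT, and what part of these counts follows from that was not tested.

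p53 targets numbered 21, of which 15 rose and 1 fell, with 8 and 5 from WT ESC D0. Plk2 read 8.99 and 8.96 at day 0 and 10.67 and 10.66 at day 4, a rise of 1.69 to the WT level of 10.57 and 10.53, and Perp, a desmosomal effector, rose by 1.93. Interferon and MHC class I genes gave 9 and 5 of 25, and 7 and 7 in the workbook. Within them the antigen presentation genes B2m and Tap1 rose by 1.33 and 1.39 (WT 1.53 and 1.27), and the membrane protein gene Ifitm1 fell by 1.06. Cholesterol synthesis genes gave 9 rises and 5 falls of 20, none as large as 2-fold, and 5 and 6 after quantile normalization.

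Among chromatin regulators Tet2 and Tet1 fell. Tet2, a dioxygenase that oxidizes methylated cytosine, read 11.73 and 11.81 at day 0 and 8.44 and 8.60 at day 4 and fell by 3.25 ± 0.09 (limma adjusted p = 1.16e-07), 9.51-fold, against 2.27 in WT. Tet1 read 13.71 and 13.74 at day 0 and 11.76 and 11.89 at day 4 and fell by 1.90 against 1.10. Both stood higher on the day 0 PML KD arrays than in WT and reached the WT level or below at day 4. The list of DNA methylation writers and TET enzymes had 4 rises and 5 falls of 13, and 1 and 9 from WT ESC D0. Of 26 Polycomb subunits 9 rose and 10 fell, against 5 and 13 from WT ESC D0: Pcgf5, a subunit of variant PRC1, read 7.42 and 7.13 at day 0 and 9.83 and 9.81 at day 4 and rose by 2.54, Phc1 fell by 1.20 and Cbx7, the main CBX protein of ESCs, by 0.80. Of 26 genes for PML nuclear body components and their SUMO enzymes 7 rose and 10 fell, against 0 and 18 in WT and 0 and 16 from WT ESC D0. The SUMO ligase gene Pias2 read 11.98 and 12.01 at day 0 and 10.71 and 10.69 at day 4 and fell by 1.30, while Pias1 rose by 0.83 against a fall of 0.54 in WT, and did not pass from WT ESC D0 (0.09). The co-repressor genes Trim28 and Trim24 fell by 0.65 and 0.70; in the workbook the Trim24 fall was -0.43 and did not pass.

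Genes of contractile cells rose in PML KD. Of 20 smooth muscle and actin genes 12 rose and 1 fell (median 0.86), against 7 and 5 in WT and 13 and 1 from WT ESC D0. Acta2, smooth muscle actin, read 7.15 and 7.05 at day 0 and 9.53 and 9.38 at day 4, a rise of 2.36 ± 0.10 (limma adjusted p = 5.72e-07). The WT arrays lay between 7.18 and 7.50 at both days, so only PML KD EBs D4 was high, and from WT ESC D0 the rise was 2.19. Tpm1, a tropomyosin, read 8.42 and 8.71 at day 0 and 11.57 and 11.59 at day 4 and Cnn2, a calponin, 8.63 and 8.57 at day 0 and 11.33 and 11.19 at day 4, rises of 3.01 and 2.66. Cald1, caldesmon, rose by 1.88 but had been low at day 0, and from WT ESC D0 the rise was 0.33. Fibroblast markers gave 10 rises and 0 falls of 19 (median 0.28), against 13 and 1 in WT (median 0.38), and 7 and 3 for PML KD in the workbook. Col1a2, a collagen I chain, read 8.23 and 7.97 at day 0 and 9.93 and 10.11 at day 4, with WT between 7.62 and 7.99. The summed level of 6 fibroblast and feeder markers was 10.25 to 10.39 log2 at day 0 and 11.13 to 11.23 at day 4 in PML KD, and 9.91 to 9.92 and 10.42 to 10.43 in WT; 5 of the 6 rose in PML KD, 2 were under the 25th percentile at day 0 and 1 at day 4, and their part in these results was not tested. Of 24 epithelial-mesenchymal transition genes 14 rose and 6 fell, against 12 and 6 in WT and 9 and 7 for PML KD in the workbook, with Cdh2 (N-cadherin) up by 2.11 and Zeb2, a repressor of epithelial genes, up by 1.25, a call the workbook did not keep (0.94).

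Genes of the 2-cell-like state, a rare state of ESC cultures, gave 7 rises and 0 falls of 11, against 3 and 4 in WT, but 1 and 6 from WT ESC D0. Tdpoz3 read 5.24 and 6.09 at day 0 and 8.27 and 8.15 at day 4 and WT ESC D0 8.07 and 8.08, so only the day 0 PML KD arrays were low. The Usp17l genes are near-identical copies, and their probe sets may read each other. Germ line genes gave 10 and 5 of 20, and 6 and 6 from WT ESC D0; Mael and Ddx4, of the piRNA pathway and the germ granule, rose by 1.80 and 1.04 (WT 1.61 and 1.14). Xist, the non-coding RNA that coats an inactive X chromosome, read 7.37 and 7.60 at day 0 and 6.19 and 6.62 at day 4 and fell by 1.08, with no call from WT ESC D0 (0.16).

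Among the largest changes outside these lists, Car4, a membrane-bound carbonic anhydrase, read 7.32 and 7.18 at day 0 and 13.11 and 13.03 at day 4, a rise of 5.82 or 56.3-fold (WT 6.00, limma adjusted p = 1.68e-08). Srgn, the core protein of a secretory proteoglycan, read 7.82 and 7.80 at day 0 and 13.41 and 13.44 at day 4, a rise of 5.61 against 2.47 in WT, whose day 0 arrays read 11.27 and 11.29. Nrk, an X-linked kinase of the placenta, rose by 5.67, Fndc3c1 by 5.07, Prtg (protogenin, an adhesion molecule of early embryos) by 4.34 and Klhl13, an adaptor of a ubiquitin ligase, by 4.26. Thbs1, thrombospondin, read 7.27 and 7.28 at day 0 and 11.37 and 11.49 at day 4, a rise of 4.16 against 2.44. Nrk and Fndc3c1 are among the 5 of the 15 largest rises that were under the 25th percentile in PML KD ESC D0, so their order is uncertain. From WT ESC D0 the rises were 2.14 for Srgn and 2.72 for Klhl13, whose day 0 PML KD arrays were low. For 14 of the 15 largest rises the change from WT ESC D0 also passed upwards, the exception being Eif2s3y. The largest fall was that of Trps1, a GATA-type repressor, which read 11.28 and 11.30 at day 0 and 7.31 and 7.57 at day 4 and fell by 3.85 ± 0.15 (limma adjusted p = 4.47e-07). Triml1 fell by 3.18. Cobl, an actin nucleator, fell by 3.16. Nfib, a nuclear factor I protein, fell by 2.88, and Hhip, which binds Hedgehog, fell by 2.65. From WT ESC D0 the falls were 2.54 for Trps1, 2.06 for Triml1 and 1.29 for Hhip. Cnpy1 read 10.52 and 10.59 at day 0 and 7.65 and 7.81 at day 4 and Adam4 9.23 and 9.60 at day 0 and 6.77 and 6.44 at day 4; each was higher on the day 0 PML KD arrays than on any WT array. All 15 largest falls passed downwards from WT ESC D0 too. Both starting points use the same day 4 arrays, so this agreement for the largest rises and falls is in part built in.

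A last group of genes moved in opposite directions in the 2 lines. Kansl1, a subunit of a histone acetyltransferase complex, read 11.38 and 11.70 at day 0 and 9.71 and 9.69 at day 4, a fall of 1.84, and rose by 1.86 in WT (difference -3.69, limma adjusted p = 6.95e-06); from WT ESC D0 it did not pass (0.09). Opposite calls were also made for 3 small RNA genes: Snora33 read 11.95 and 12.03 at day 0 and 10.63 and 10.57 at day 4, Snora75 10.45 and 10.35 at day 0 and 9.28 and 9.15 at day 4 and Snord118 9.06 and 9.19 at day 0 and 8.59 and 8.62 at day 4, falls of 1.39, 1.19 and 0.52 where WT rose by 2.15, 2.10 and 3.29. The WT EBs D4 arrays are the highest of the 8 for each of them, and the PML KD EBs D4 arrays lie near WT ESC D0. Anxa1, annexin A1, read 5.98 and 6.15 at day 0 and 8.57 and 8.49 at day 4, a rise of 2.47 against a fall of 0.41, and Nup62cl rose by 2.74 against a fall of 0.57. Tuba3a read 8.66 and 8.52 at day 0 and 9.81 and 9.69 at day 4 and rose by 1.16, while WT started at 11.42 and 11.44 and fell by 2.34, and from WT ESC D0 Tuba3a fell by 1.68.

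**Figure D5:**
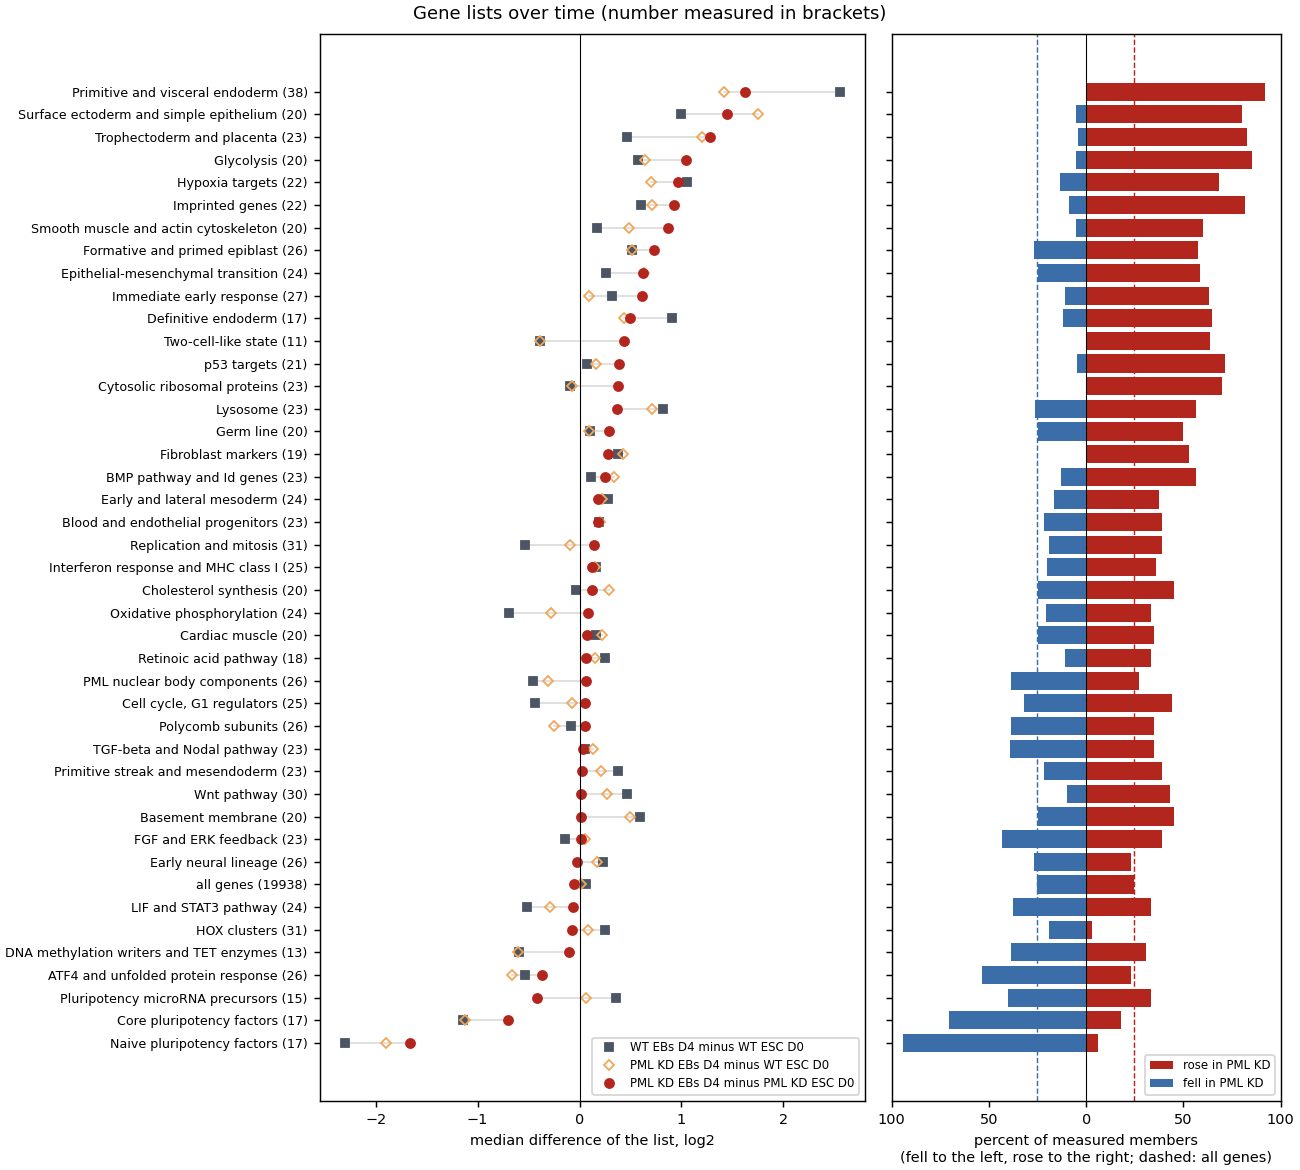
Left, median log2 difference of each gene list for PML KD over time (circles), WT over time (squares) and PML KD EBs D4 minus WT ESC D0 (diamonds), with the number measured in brackets; right, percent of members that rose and fell in PML KD, with dashed lines for all genes. Lists of under 10 measured genes are left out. Visceral endoderm lies at 1.62 in PML KD and 2.56 in WT, naive factors at -1.66 and -2.30.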

How the data were processed

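The RNA of 8 samples, 4 groups of 2, was hybridised to Affymetrix MoGene 1.0 ST arrays. The values used are the deposited table of linear intensity, 1 per probe set and array, made by the authors with Transcriptome Analysis Console per the submitters' processing notes; how background and scaling were handled is not stated in the sources used here. The authors' workbook holds log2 values per gene as deposited, with day means that differ, and was used only as an alternative after quantile normalization; it matched 19460 genes, and its 4 columns of group means were not used. Of 35556 probe sets, 21789 had 1 symbol in the platform annotation; the brightest probe set was kept for each of 19938 genes. Array medians lay between 169 and 199, and the number of arrays limits the precision.

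Log2 intensity was fitted with limma 3.58.1 (R 4.3.3) over 4 group means with 4 residual degrees of freedom, and p-values were adjusted by Benjamini-Hochberg over 19938 genes at 0.05, two-sided. Tables and figures used Python 3.11.15, pandas 2.3.3, numpy 2.4.6 and matplotlib 3.10.9. Tested on simulated data for the PML KD change over 19938 genes, the fit called 65 of 66 genes changed by 1 log2 unit, 36 of 67 changed by 0.5 and 3 of 67 changed by 0.3, with 7 false calls. Only these few genes were changed in the simulation, while 9880 passed in the data. Its recovery rates and its false calls therefore need not hold for the data. Named genes are Pml, a panel of 30 genes, the 15 largest rises and falls, the 10 largest differences of change between the lines in each direction, the 10 largest with opposite calls, and up to 5 members of each of 45 lists with the smallest adjusted p; the text names a selection. The members and lists were chosen with earlier results of these data known. Replicate numbers were not treated as pairs: the deviations of same-numbered PML KD arrays correlated at -0.08 and those of WT at 0.02. These values show no large effect shared by a number, and they cannot show whether the cultures were paired. Sequences are from RefSeq, GRCm38.p6. The alternatives were other scalings, probe set rules, filters, a pseudocount, the replicate block, arrays left out, and WT ESC D0 as the starting point.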

Additional observations from a re-analysis of the deposited data

Results flagged for a closer look

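The change from day 0 to day 4 differed between PML KD and WT for many genes by the limma test of the difference itself: 5034 genes lay higher in PML KD and 5055 lower. What part of these counts follows from the opposite shifts of dim and bright genes was not tested. The largest differences with the PML KD change higher (log2, PML KD change minus WT change) were 4.88 for Eif2s3y, 4.40 for Spink10, 3.51 for Tuba3a, 3.45 for Uty, 3.31 for Nup62cl, 3.22 for Klhl13, 3.15 for Srgn, 3.11 for Myc, 3.05 for Tdpoz3 and 3.01 for Pramel13. Spink10 read 4.91 and 5.19 at day 0 and 5.75 and 5.15 at day 4 in PML KD, while WT fell from 10.05 and 10.21 to 6.00 and 6.24, and the lines stood -5.08 apart at day 0 (PML KD minus WT). Its PML KD arrays lay under the 25th percentile of all genes at both days, so the size of its difference is uncertain. Among genes with opposite calls in the 2 lines, Bin2 differed by 2.97 and Anxa1 by 2.88. The largest differences with the PML KD change lower were -3.81 for Snord118, -3.69 for Kansl1, -3.54 for Snora33, -3.29 for Prss12, -3.28 for Snora75, -3.05 for Apoa4, -2.95 for Apoa1 and -2.94 for Apob, with Adam4 at -2.81 and Ntn1, a netrin guidance factor, at -2.77. Prss12 rose by 0.83 in PML KD and by 4.12 in WT, to 11.29 and 11.16. Ntn1 read 10.92 and 11.02 at day 0 and 8.66 and 8.75 at day 4 in PML KD and 8.85 to 9.43 on the WT arrays, so its day 0 PML KD arrays were the high ones. Groups of 2 arrays were not tested for outlying arrays.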

How the results depend on the processing

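Counts of changed genes stayed within 1.5 times under the scalings, filters and array choices tried, with 3 exceptions. In the workbook after quantile normalization 1540 genes rose and 1458 fell at least 2-fold in PML KD, against 1008 and 579, and with each array shifted to the same median 3190 genes rose in WT, against 4849; the cause was not tested. Leaving out 1 array at a time gave 4036 to 4832 rising and 3517 to 5110 falling genes in PML KD, 954 to 1094 and 532 to 650 at least 2-fold, 3437 to 4964 and 4200 to 5134 in WT, and 4417 to 4953 and 3687 to 5011 for the difference of change. The replicate block, for arrays that share a number, gave 4782 rising and 4944 falling genes in PML KD, 4797 and 5062 in WT, and 4960 and 4981 for the difference of change. In the workbook the direction was reversed for Mesp1 (-0.33) and Apoa1 (-0.36). Of 160 named genes 150 kept call and direction in PML KD under every setting that starts from PML KD ESC D0; the other 10 are Mesp1, Apoa1, Apoa4, Gata4, Sox17, Kdr, Cdx2, Trim24, Zeb2 and Spink10. With WT ESC D0 as the start, added after the data were seen, 136 of the 160 kept both. The sign turned for Bin2 (-0.95), Eif2s3y (-0.24), Eomes (-0.24), Kansl1 (0.086), Mir17 (0.0345), Myc (-0.88), Pax6 (0.27), Porcn (0.25), Pramel13 (-0.20), Rpl8 (-0.0939), Snord118 (0.32), Spink10 (-4.68), Tuba3a (-1.68), Uty (-0.19) and Xist (0.16), the call was lost for Cycs, Ntn1, Pias1, Plk2, Snora75, Tdpoz3 and Zfy1, and Cdx2 and Socs3 gained one. Changes near 0.3 log2 were rarely called in the simulation with 2 arrays a group, and dim genes move with the scaling.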

Other observations

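Some gene families picked by symbol after their values were seen moved mostly in the same direction in PML KD. Over all genes 24.3% rose and 25.2% fell. Of 40 proteasome subunit genes, which encode the protease that clears ubiquitinated proteins, 33 rose and 3 fell in PML KD, against 3 and 30 in WT, and from WT ESC D0 4 rose and 15 fell. Of 77 mitochondrial ribosomal protein genes 46 rose and 5 fell, against 1 and 50 in WT, and of 49 translation initiation factor genes 30 rose and 5 fell, against 3 and 32. In these 3 families the day 4 PML KD arrays lay below WT ESC D0 more often than above. The brightest of 10 signal bins had a median of 0.13 in PML KD and -0.29 in WT. How far the counts of these families follow from that was not tested.

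Small nucleolar RNA genes, which guide the modification of ribosomal RNA, went the other way: 6 of 51 rose and 36 fell in PML KD (median -0.50), and 42 rose and 1 fell in WT (median 0.66). From WT ESC D0 to PML KD EBs D4, however, 17 of them rose and 6 fell (median 0.14). Of 12 annexin genes, for calcium-dependent membrane proteins, 9 rose and 1 fell, with a median of 0.94 against 0.01 in WT. Of 44 collagen chain genes 7 rose and 6 fell in PML KD (15.9% and 13.6%), both below the shares over all genes. In WT 33 rose and 0 fell, and from WT ESC D0 17 rose and 1 fell. For the collagen genes these counts move with the scaling: PML KD gave 6 and 11 and WT 21 and 0 after quantile normalization, and PML KD 11 and 10 and WT 19 and 5 in the workbook. Of 347 zinc finger genes named Zfp 50 rose and 139 fell, against 41 and 172 in WT.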
